A study of Mus musculus with 6 samples.

Results

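The 10 genes described here encode regulators of mitochondrial number and oxidative metabolism: the coactivators Ppargc1a and Ppargc1b, the muscle regulator Perm1, the estrogen-related receptors (ERRs) Esrra, Esrrb and Esrrg, the fatty acid receptor Ppara, the transcription factors Nrf1 and Gabpa, and the mitochondrial DNA factor Tfam. They were chosen by name, with no measured value in the rule but with earlier results of these data known. They were found by their symbols in the GRCm38 annotation, 10 of the 52550 mouse genes in the count tables. All 10 had enough reads to be among the 14860 genes tested. RNA came from whole hearts of mice at postnatal day 7, from 3 GR-cKO mice, whose cardiomyocytes lack Nr3c1, the gene of the glucocorticoid receptor, and from 3 control mice. The labels give neither the Cre driver, the deleted exon, the strain nor the genotype of the controls, so alleles that both groups may share are unknown. The reads cover the 3′ ends of transcripts, so a count follows the number of transcripts and is not divided by gene length. Levels are given in CPM, the reads of a gene relative to those of all tested genes, scaled by the trimmed mean of M-values (TMM).

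PGC-1α, the product of Ppargc1a, and PGC-1β, the product of Ppargc1b, do not bind DNA themselves. They dock on nuclear receptors, chiefly the ERRs and PPARα, and on NRF1, and raise transcription of genes for the respiratory chain, the tricarboxylic acid cycle and fatty acid oxidation. NRF1 and GABP (also called NRF2) drive nuclear genes of the respiratory chain and the gene Tfam, whose product packages mitochondrial DNA and starts its transcription. In the newborn mouse heart this network accompanies the switch from glucose to fatty acids as the main fuel. Nrf1 here is nuclear respiratory factor 1, not the stress factor Nfe2l1 that shares the abbreviation.

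The promoters of 9 members were found in the RefSeq promoter table (GRCm38.p6), 14 windows in all, each of 250 bases before and 50 bases after a transcript start. They are shown for the 4 genes whose window held letters that the family's own factors are known to bind. Both strands were searched for an ERR element (TNAAGGTCA), its core (AAGGTCA), an NRF1 core (CGCATGCG, its own reverse complement), a GABP element (CCGGAAGT) and a cAMP response element (TGACGTCA). Capitals mark the match in each window, which is written 5′ to 3′ along the gene.
Tfam, chr10:71237995-71238294, minus strand, GABP element: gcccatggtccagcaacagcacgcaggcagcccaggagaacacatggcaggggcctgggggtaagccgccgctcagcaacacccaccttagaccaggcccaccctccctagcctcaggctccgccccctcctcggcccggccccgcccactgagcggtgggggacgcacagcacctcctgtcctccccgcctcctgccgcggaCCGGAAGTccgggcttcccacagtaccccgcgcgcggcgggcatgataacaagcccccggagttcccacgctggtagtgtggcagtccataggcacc
Gabpa, chr16:84834874-84835173, plus strand, NRF1 core: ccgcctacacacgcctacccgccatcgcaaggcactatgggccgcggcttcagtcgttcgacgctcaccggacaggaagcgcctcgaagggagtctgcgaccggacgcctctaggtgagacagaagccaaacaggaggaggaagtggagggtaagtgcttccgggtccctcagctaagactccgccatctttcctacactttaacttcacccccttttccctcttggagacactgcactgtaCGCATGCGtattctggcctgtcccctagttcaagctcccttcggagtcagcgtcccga
Ppara, chr15:85735526-85735825, plus strand, NRF1 core: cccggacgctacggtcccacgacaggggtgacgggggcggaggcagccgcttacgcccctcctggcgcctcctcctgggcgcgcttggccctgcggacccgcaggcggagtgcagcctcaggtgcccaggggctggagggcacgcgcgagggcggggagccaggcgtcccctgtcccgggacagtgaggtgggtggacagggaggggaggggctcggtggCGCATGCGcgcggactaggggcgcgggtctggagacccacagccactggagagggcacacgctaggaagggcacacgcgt
Perm1, chr4:156215677-156215976, plus strand, ERR core on the opposite strand: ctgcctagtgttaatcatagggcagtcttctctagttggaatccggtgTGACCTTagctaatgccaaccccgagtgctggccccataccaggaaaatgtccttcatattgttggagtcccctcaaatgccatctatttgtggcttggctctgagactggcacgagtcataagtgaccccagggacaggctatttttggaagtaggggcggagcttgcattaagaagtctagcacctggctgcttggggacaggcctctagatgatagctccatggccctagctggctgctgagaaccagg
Of all 32851 windows in that table, 3.89% held the GABP element, 1.87% the NRF1 core and 4.72% the ERR core, which is part of the ERR element, itself in 1.28%. The cAMP response element, in 1.79% of all windows, had no match in the members' windows. A match is a description of these letters and not a measured binding site.

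Each library held 18135540 to 22999192 reads, and the members had 129 to 3937 reads per library. Nr3c1 was at 57.6, 49.2 and 56.2 CPM in GR-cKO hearts, against 114, 131 and 99.7 CPM in control hearts, with no overlap. Of 14860 genes it was the only 1, 0.00673%, that passed an adjusted p of 0.05 in the edgeR quasi-likelihood test (log2 fold change -1.08, SE 0.125, adjusted p = 0.00101), and 3′ reads outside the deleted exon would not measure the deletion itself. Summed CPM of 8 cardiomyocyte markers, Myh6 and Tnnt2 among them, ran from 41745 to 51662 in GR-cKO and from 42473 to 44321 in control hearts. Over 8 markers each, fibroblast sums ran from 3932 to 4102 CPM in GR-cKO and from 4142 to 5033 CPM in control hearts, and endothelial sums from 1661 to 1852 CPM in GR-cKO and from 1535 to 1784 CPM in control hearts. Macrophage markers ran from 127 to 141 CPM in GR-cKO and from 126 to 128 CPM in control hearts, and neutrophil markers from 19.8 to 28.8 CPM in GR-cKO and from 13.1 to 15.4 CPM in control hearts. Erythroid markers ran from 6800.3 to 7788 CPM in GR-cKO and from 6564 to 9233 CPM in control hearts. Fibroblast and neutrophil sums did not overlap between groups, as was so for 9.97% of single tested genes, and no marker was at 0 in all libraries. Of the 8 fibroblast markers taken singly, 3 did not overlap, and 6 had estimates below 0 and 2 above. Only 5 of the 8 neutrophil markers had enough reads to test, all with estimates above 0, and 2 of them did not overlap. The library of GR-cKO replicate 3 stood apart: 10.9% of its gene reads fell on Gm42418, a transcript overlapping ribosomal RNA sequence, against 5.47 to 7.69% in the other libraries. Its 8 cycling cell markers summed to 220 CPM, against 326 to 423 CPM in the other libraries. By Xist and Y-linked reads, replicate 1 of each group was female and the other libraries were male.

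None of the 10 members passed an adjusted p of 0.05 in the edgeR test between GR-cKO and control hearts. The largest estimates were a log2 fold change of 0.32 for Ppargc1b and of -0.49 for Esrrb, and the 95% intervals of 9 members, all but Esrrb, excluded a 1.5-fold change in either direction. All 10 intervals excluded a 2-fold change. Among all tested genes 47.8% of intervals excluded a 1.5-fold change, and the median SE was 0.207, against 0.145 for the members. At an unadjusted p under 0.05 stood 2 members, Ppargc1b on the higher and Esrrb on the lower side, where 4.2% of all tested genes stood, 2.07% higher and 2.13% lower. The groups did not overlap for 3 members, 1 of them above (Ppargc1b) and 2 below (Esrrb and Tfam), where 9.97% of all tested genes did not overlap, 4.7% above and 5.27% below. The median log2 fold change was -0.06 over the members and 0.01 over all tested genes. The members' summed level was 665 ± 57.4 CPM in GR-cKO and 667 ± 12.2 CPM in control hearts (SD, n = 3 each, 2-sided exact permutation p = 1.0, where 3 against 3 cannot go below 0.1).

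**Figure D1:**
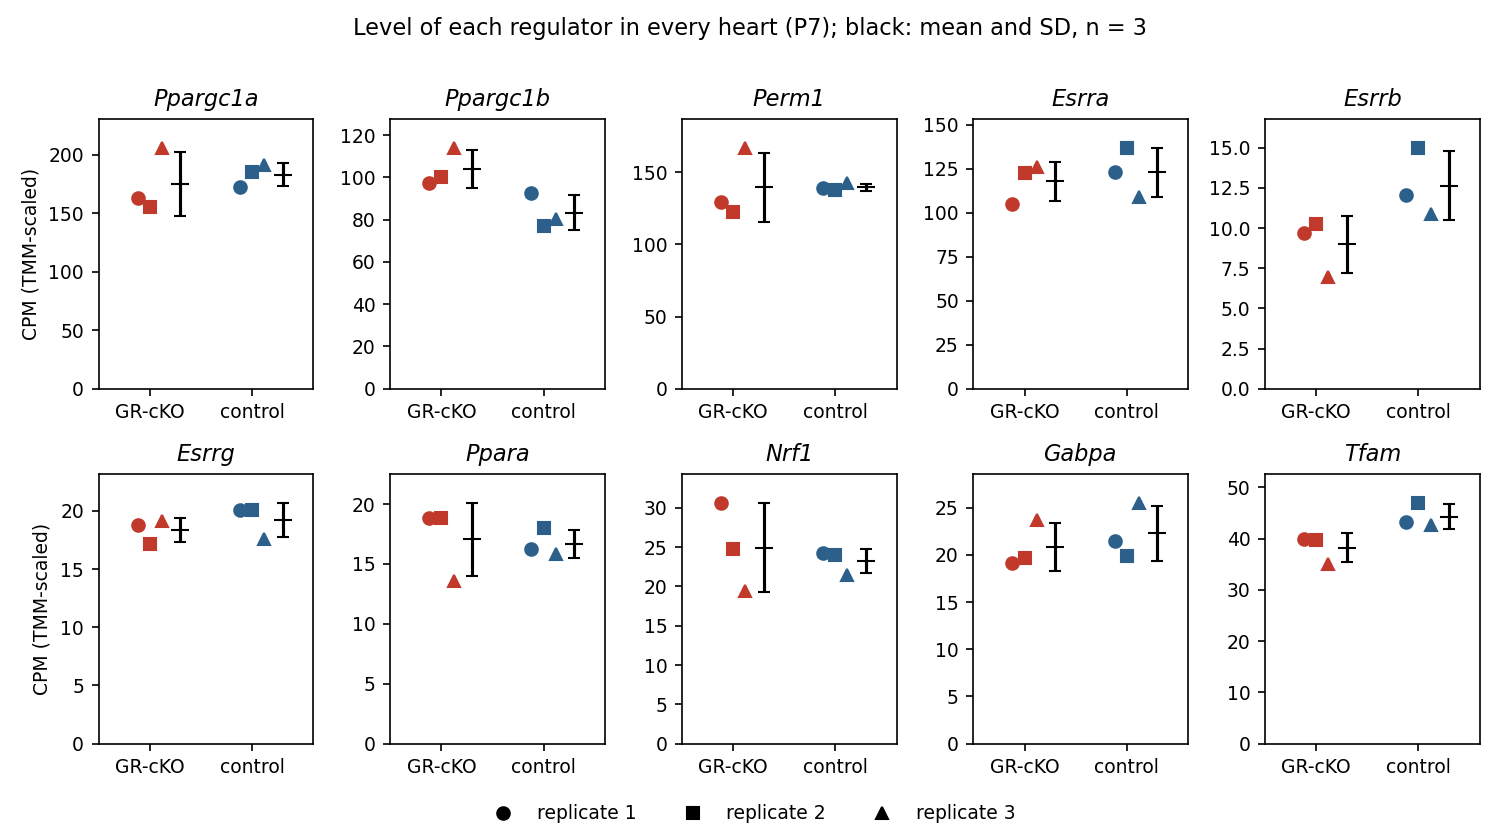
Level of each of the 10 regulators in TMM-scaled CPM (vertical axis, from 0) in every heart, GR-cKO left and control right, with the replicate shown by the symbol and the mean and SD (n = 3) in black. Ppargc1b lies higher and Esrrb and Tfam lie lower in all 3 GR-cKO hearts, and the other 7 genes overlap.

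In control hearts 4 members were clearly more abundant than the rest. Ppargc1a averaged 183 CPM, above 95.1% of tested genes, followed by Perm1 at 140 CPM, Esrra at 123 CPM and Ppargc1b at 83.4 CPM. These 4 genes kept separate ranges in control hearts. Tfam at 44.3 CPM was separate from the genes above and below it. Nrf1 at 23.2 CPM, Gabpa at 22.3 CPM, Esrrg at 19.3 CPM and Ppara at 16.7 CPM followed, and each overlapped its neighbour in this order. Esrrb was lowest at 12.6 CPM, still above 48.3% of tested genes, and separate from Ppara. The order of means was the same in GR-cKO hearts. There the ranges of Ppargc1a and Perm1, of Perm1 and Esrra, and of Esrra and Ppargc1b overlapped, and Ppargc1b was separate from Tfam. In whole-heart RNA fewer cells of a type and less RNA per cell cannot be told apart.

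Ppargc1a (GRCm38 chr5:51454250-51567726, minus strand), the inducible coactivator, was at 163, 155 and 206 CPM in GR-cKO replicates 1, 2 and 3, against 172, 185 and 192 CPM in control replicates 1, 2 and 3. GR-cKO replicate 3 was the highest of all hearts and the other 2 GR-cKO hearts were the lowest, so that the GR-cKO range enclosed the control range. GR-cKO over control gave a log2 value of -0.06 (SE 0.124, 95% interval -0.32 to 0.20). This was -0.20 without GR-cKO replicate 3 and 0.01 without GR-cKO replicate 2. Perm1 (GRCm38 chr4:156215868-156221307, plus strand), a striated muscle protein that PGC-1 and the ERRs induce and that in turn supports their targets, was at 130, 122 and 167 CPM in GR-cKO hearts, against 139, 138 and 142 CPM in control hearts. Its spread between hearts, as a coefficient of variation, was 17.2% in GR-cKO and 1.74% in control hearts, although the log2 fold change was only -0.0010 (SE 0.125). The highest GR-cKO value, 167 CPM, was that of replicate 3, whose library stood apart. Each spread comes from 3 hearts, and a difference in spread was not tested.

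Ppargc1b (GRCm38 chr18:61298136-61400431, minus strand), the constitutive coactivator that is abundant in heart, was at 97.4, 100.1 and 114 CPM in GR-cKO replicates 1, 2 and 3, against 92.7, 77.2 and 80.3 CPM in control replicates 1, 2 and 3. All GR-cKO hearts were above all control hearts, with the narrowest gap between the female hearts, GR-cKO replicate 1 at 97.4 CPM and control replicate 1 at 92.7 CPM. The mean was 104 ± 8.95 CPM in GR-cKO and 83.4 ± 8.21 CPM in control hearts (SD, n = 3 each), 1.25-fold with a 95% interval of 1.05 to 1.48. The edgeR p was 0.0151 before and 0.998 after adjustment over all tested genes, and it ranked 151 among them. The log2 fold change stayed between 0.24 and 0.40 with each library left out, and was lowest without GR-cKO replicate 3.

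The balance of Ppargc1a and Ppargc1b was compared within each library, where scaling cancels. Ppargc1a took 62.6%, 60.8% and 64.4% of the reads of both coactivators in GR-cKO replicates 1, 2 and 3, and 65.0%, 70.6% and 70.5% in control replicates 1, 2 and 3. Every GR-cKO heart had a smaller share of Ppargc1a than every control heart, by a mean of 62.6 ± 1.76% in GR-cKO and 68.7 ± 3.19% in control hearts (SD, n = 3 each, 2-sided exact permutation p = 0.1, the lowest possible here). The closest values were GR-cKO replicate 3 (exact 95% binomial interval 63.1 to 65.6%) and control replicate 1 (63.8 to 66.2%), whose intervals overlap, so the gap between groups is within counting error there. Such intervals cover counting error only, and can be too narrow even for that, because several reads can come from 1 molecule. The summed level of both coactivators was 279 ± 35.9 CPM in GR-cKO and 266 ± 4.90 CPM in control hearts (exact permutation p = 1.0), a sum chosen after its values were seen.

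**Figure D2:**
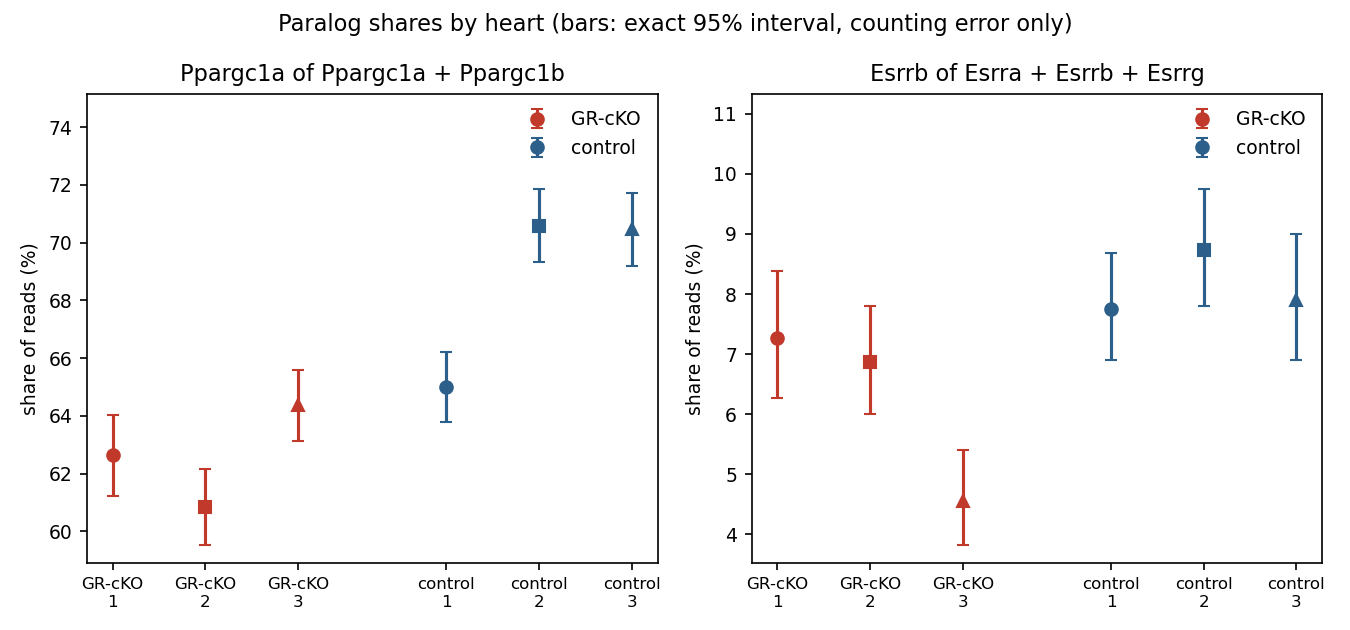
Share of Ppargc1a among reads of both PGC-1 genes (left) and of Esrrb among reads of the 3 ERR genes (right), in percent (axes do not start at 0), by heart, with GR-cKO hearts left of control hearts and exact 95% binomial intervals for counting error. The Ppargc1a share is at most 64.4% in GR-cKO and at least 65.0% in control hearts, and the Esrrb share at most 7.27% in GR-cKO and at least 7.76% in control hearts.

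Among the ERRs, orphan receptors that bind the core AAGGTCA without a known natural hormone, Esrra carried most reads. Esrra (GRCm38 chr19:6910977-6921813, minus strand), the main partner of PGC-1α, was at 105, 122 and 126 CPM in GR-cKO hearts, against 123, 137 and 109 CPM in control hearts, a log2 fold change of -0.06 (SE 0.121, 95% interval -0.32 to 0.19). Its 3′ end shares 73 exon bases with Trmt112 on the opposite strand, so its count is uncertain where strand was not used, and Trmt112 was at 16.2 ± 0.720 CPM in GR-cKO and 14.9 ± 1.59 CPM in control hearts. Esrrg (GRCm38 chr1:187608791-188214885, plus strand), known in mice to be needed for the perinatal switch of the heart to oxidative metabolism, was at 18.8, 17.2 and 19.1 CPM in GR-cKO hearts, against 20.1, 20.1 and 17.6 CPM in control hearts, a log2 fold change of -0.07 (SE 0.162, 95% interval -0.41 to 0.27). Both genes overlapped between the groups.

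Esrrb (GRCm38 chr12:86361117-86521628, plus strand), best known from pluripotent cells and placenta, was the least abundant member and had the largest estimate. It had 174, 218 and 129 reads in GR-cKO replicates 1, 2 and 3, against 276, 292 and 207 reads in control replicates 1, 2 and 3. Scaled, these were 9.72, 10.3 and 6.94 CPM in GR-cKO hearts and 12.1, 15.001 and 10.9 CPM in control hearts. All GR-cKO hearts were below all control hearts, and the closest, GR-cKO replicate 2 and control replicate 3, were at 10.3 and 10.9 CPM. On the log2 scale GR-cKO over control was -0.49 (SE 0.222), its 95% interval ran from -0.96 to -0.03, and the edgeR p was 0.0398 before and 0.998 after adjustment. It was -0.34 without GR-cKO replicate 3 and -0.35 without control replicate 2.

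Within the ERR reads of a library, Esrra took 81.1 ± 2.18% in GR-cKO and 79.4 ± 0.157% in control hearts (SD, n = 3 each, exact permutation p = 0.4). Esrrg took 12.7 ± 1.32% in GR-cKO and 12.5 ± 0.680% in control hearts (exact permutation p = 1.0). The share of Esrrb, examined after its values were seen, was 7.27%, 6.86% and 4.56% in GR-cKO replicates 1, 2 and 3, and 7.76%, 8.73% and 7.91% in control replicates 1, 2 and 3. The lowest share belonged to GR-cKO replicate 3 (exact 95% interval 3.82 to 5.40%), and the intervals of GR-cKO replicate 1 (6.26 to 8.39%) and control replicate 1 (6.90 to 8.69%) overlapped.

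Ppara (GRCm38 chr15:85734983-85802819, plus strand), the receptor that senses fatty acids and induces the genes that oxidise them, was at 18.8, 18.9 and 13.6 CPM in GR-cKO hearts, against 16.2, 17.98 and 15.8 CPM in control hearts. Its log2 fold change was 0.03 (SE 0.181, 95% interval -0.35 to 0.41). Nrf1 (GRCm38 chr6:30047988-30153458, plus strand) was at 30.7, 24.8 and 19.4 CPM in GR-cKO hearts, against 24.2, 24.0 and 21.4 CPM in control hearts, a log2 fold change of 0.10 (SE 0.171). For both genes GR-cKO replicate 3 was the lowest of all hearts while another GR-cKO heart was the highest. Gabpa (GRCm38 chr16:84834925-84863779, plus strand), the DNA-binding subunit of GABP, was at 19.1, 19.7 and 23.7 CPM in GR-cKO hearts, against 21.4, 19.8 and 25.5 CPM in control hearts, a log2 fold change of -0.10 (SE 0.164). Its exons share 397 bases with Atp5j on the opposite strand, at the end of Gabpa away from its 3′ end.

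Tfam (GRCm38 chr10:71225464-71238280, minus strand), whose product coats mitochondrial DNA and starts its transcription, was at 40.04, 39.7 and 35.1 CPM in GR-cKO replicates 1, 2 and 3, against 43.2, 47.1 and 42.6 CPM in control replicates 1, 2 and 3. All GR-cKO hearts were below all control hearts. The mean was 38.3 ± 2.76 CPM in GR-cKO and 44.3 ± 2.43 CPM in control hearts (SD, n = 3 each). GR-cKO over control was -0.21 on the log2 scale (SE 0.128, 95% interval -0.48 to 0.06), and the edgeR p was 0.117 before and 0.998 after adjustment. With each library left out it ran from -0.24 to -0.15. Genes of the mitochondrial genome took 6.77%, 6.47% and 6.29% of gene reads in GR-cKO replicates 1, 2 and 3, and 6.93%, 6.97% and 7.13% in control replicates 1, 2 and 3. These groups did not overlap either, as was so for 9.97% of single tested genes. The closest were GR-cKO replicate 1 and control replicate 1, and a link of this share to Tfam was not tested.

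**Figure D3:**
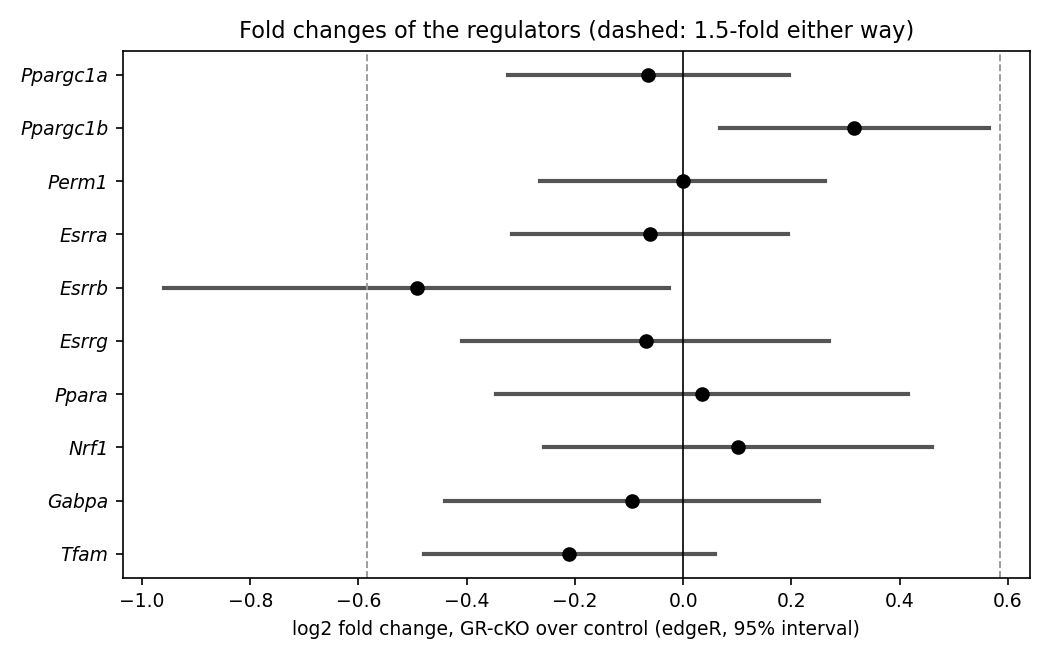
Log2 fold change of GR-cKO over control hearts for each member (points), with the 95% interval of the edgeR fit (lines) and dashed lines at a 1.5-fold change. Only the intervals of Ppargc1b (0.07 to 0.56) and Esrrb (-0.96 to -0.03) leave out 0, before any adjustment over genes.

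The members varied in different directions from heart to heart. GR-cKO replicate 3 was the highest or lowest of the 6 hearts for 7 of the 10 members, where it was so for 45.1% of all tested genes. In that heart Ppargc1a, Ppargc1b and Perm1 were highest and Esrrb, Tfam, Nrf1 and Ppara were lowest. The excess of Gm42418 reads in the same library and its low cycling cell markers stand beside this, and their part in it was not tested. Without that library the estimates for Ppargc1b (0.24), Esrrb (-0.34) and Tfam (-0.15) kept their direction.

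Likeness to Ppargc1a was measured as the root mean square difference of log2 CPM over the 6 hearts, each gene centred on its own mean, among 10230 other genes with a mean of at least 5 CPM. Col6a3 (difference 0.026), Ecm2 (0.039) and Itgb5 (0.039), genes of the matrix and of cell adhesion, were most like it, against a median difference of 0.215. Perm1 stood 13th (0.052), and Perm1 and Ppargc1a were the most alike of all pairs of members. Ppargc1b stood at rank 6130 (0.239) and Esrrb at rank 9399 (0.396). Perm1 had 79.3, 78.6 and 81.02 reads per 100 Ppargc1a reads in GR-cKO hearts, and 80.8, 74.3 and 74.3 in control hearts, a ratio chosen after its values were seen. The likeness is a description over 6 hearts.

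**Figure D4:**
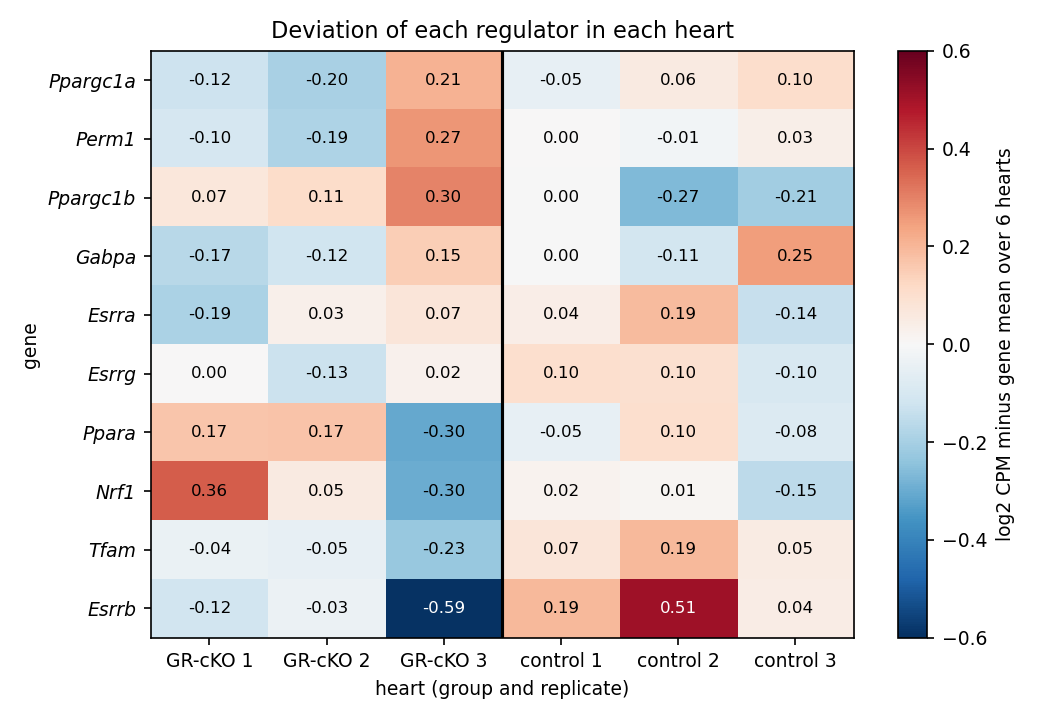
Log2 CPM of each member in each heart minus its mean over the 6 hearts (colour scale and printed values), with GR-cKO hearts left of the line and control hearts right of it. The column of GR-cKO replicate 3 runs from -0.59 for Esrrb to 0.30 for Ppargc1b, and the highest value is 0.51, for Esrrb in control replicate 2.

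Genes around the members were described by 8 lists, none of which had a member past the adjusted threshold. Some genes stand in several lists, Cycs and Pdk4 among them, so the counts of these lists are not separate from each other. Of 19 kinases, phosphatases and transcription regulators upstream of Ppargc1a, 10 had estimates above 0 and 9 below (median log2 fold change 0.01). On the higher side 2 stood at an unadjusted edgeR p under 0.05, beside 2.07% of all tested genes. These were Tfeb, at 76.4 ± 15.04 CPM in GR-cKO and 55.1 ± 11.7 CPM in control hearts, and its relative Tfe3, at 19.7 ± 0.408 and 14.1 ± 1.71 CPM in GR-cKO and control hearts (SD, n = 3 each), with edgeR adjusted p-values of 0.998. Both encode factors that induce lysosomal genes and Ppargc1a. The groups overlapped for Tfeb, and its log2 fold change, 0.47, was 0.30 without GR-cKO replicate 3 and 0.32 without control replicate 2. Mtor, the kinase that restrains TFEB, was at 22.99 ± 1.90 CPM in GR-cKO and 27.4 ± 1.27 CPM in control hearts. Its edgeR p was 0.101 before and 0.998 after adjustment, and a link among these genes was not tested.

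Cofactors and enzymes that act on PGC-1 and the ERRs had 12 of 19 estimates above 0 and 7 below (median 0.03). Prmt1, a methyltransferase of PGC-1α, was at 324 ± 11.4 CPM in GR-cKO and 242 ± 62.3 CPM in control hearts, a log2 fold change of 0.42 that was 0.22 without control replicate 2. The coactivators Ncoa1, at 39.1 ± 5.86 CPM in GR-cKO and 44.5 ± 5.39 CPM in control hearts, and Ncoa3, at 20.2 ± 3.35 and 23.2 ± 1.96 CPM in GR-cKO and control hearts, overlapped between groups (SD, n = 3 each). Other PPARs, RXR partners and GABPβ subunits had 3 of 7 estimates above 0 (median -0.02). Of these the RXR subunit Rxra was at 42.2 ± 5.39 CPM in GR-cKO and 37.6 ± 2.15 CPM in control hearts. Pparg, the PPAR of fat cells, was at 2.17 ± 0.740 CPM in GR-cKO and 1.37 ± 1.06 CPM in control hearts. Its log2 fold change of 0.67 was 0.24 without control replicate 3, 0.37 without GR-cKO replicate 2 and 1.42 without control replicate 2. Gabpb1 was at 9.40 ± 1.31 CPM in GR-cKO and 11.2 ± 2.23 CPM in control hearts.

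Known targets of PGC-1 and the ERRs had 16 of 20 estimates below 0, where 48.7% of all tested genes were below 0. Their median log2 fold change was -0.07, and it was -0.03 without GR-cKO replicate 2. At an unadjusted p under 0.05 on the lower side stood 3 of the 20 (Ckmt2, Uqcrfs1 and Cycs), beside 2.13% of all tested genes. In 6 of the 20 the groups did not overlap, each time with GR-cKO below control, beside the 5.27% of all tested genes named above. They were Ckmt2, the mitochondrial creatine kinase, Uqcrfs1 of complex III, cytochrome c (Cycs), Atp5a1 of ATP synthase, the adenine nucleotide carrier Slc25a4 and the oxidase subunit Cox6a2. Ckmt2 was at 475 ± 61.7 CPM in GR-cKO and 682 ± 56.7 CPM in control hearts (SD, n = 3 each, log2 fold change -0.52, SE 0.119, edgeR adjusted p = 0.998). Slc25a4 was at 4784 ± 241 CPM in GR-cKO and 5479 ± 394 CPM in control hearts, and Cox6a2 at 1689 ± 42.4 and 1799 ± 22.98 CPM in GR-cKO and control hearts. Mb, the oxygen store myoglobin, was at 11145 ± 2087 CPM in GR-cKO and 9550 ± 1026 CPM in control hearts, with an estimate above 0. Ckmt2, Uqcrfs1 and Cycs were known from earlier results when the list was made. The list is thus not independent evidence of its direction, nor are its counts of genes under 0.05 and not overlapping.

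Known PPARα targets had 14 of 23 tested estimates below 0 (median -0.04), and the median moved to -0.20 without GR-cKO replicate 3 and to 0.03 without GR-cKO replicate 2. Lpl, which releases fatty acids from lipoproteins, was at 1781 ± 253 CPM in GR-cKO and 2230 ± 152 CPM in control hearts (SD, n = 3 each, edgeR adjusted p = 0.998). Pdk4, which restrains glucose oxidation, was at 103 ± 28.6 CPM in GR-cKO and 146 ± 37.1 CPM in control hearts. Its log2 fold change of -0.50 was -0.27 without control replicate 1 and -0.31 without GR-cKO replicate 2. Ehhadh, a peroxisomal enzyme of fatty acid oxidation, was at 0.832 ± 0.430 CPM in GR-cKO and 1.68 ± 0.372 CPM in control hearts. Cpt1b, the muscle form of the carnitine palmitoyltransferase that admits fatty acids to mitochondria, reached at most 3 reads in a library, too few to test. In the annotation used here another gene, Gm44502, lies on the same strand over 2744 of its 3372 exon bases. Gm44502 has no row in the deposited counts, and its part in the low count was not tested. The count is uncertain and gives no level of Cpt1b.

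Known NRF1 and GABP targets had 9 of 13 estimates below 0 (median -0.16). This median was -0.07 without GR-cKO replicate 2 and -0.10 without control replicate 2. The groups did not overlap for 3 of the 13, Cycs, Cox5b and Tomm34, with GR-cKO below control, beside 5.27% of all tested genes below and 9.97% not overlapping. Cycs was known from earlier results here too. Cycs was at 109 ± 12.7 CPM in GR-cKO and 133 ± 4.45 CPM in control hearts, and the oxidase subunit Cox7c at 720 ± 111 and 869 ± 61.7 CPM in GR-cKO and control hearts (SD, n = 3 each, edgeR adjusted p = 0.998 for both). Alas1, the first enzyme of heme synthesis, was at 94.8 ± 10.5 CPM in GR-cKO and 112 ± 16.0 CPM in control hearts. Genes that transcribe, copy and maintain mitochondrial DNA, the machinery beside Tfam, had 11 of 17 estimates below 0 (median -0.14, which was -0.03 without GR-cKO replicate 3, -0.07 without GR-cKO replicate 2 and -0.08 without control replicate 1 or 2). Twnk, the mitochondrial DNA helicase, was at 20.1 ± 2.76 CPM in GR-cKO and 24.3 ± 0.973 CPM in control hearts, and Tefm, the elongation factor of mitochondrial transcription, at 11.5 ± 1.87 and 8.58 ± 1.01 CPM in GR-cKO and control hearts. Fusion and fission genes had 3 of 6 estimates on each side (median 0.01), from -0.08 for Fis1 to 0.08 for Opa1, with Mfn1 at 0.05.

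**Figure D5:**
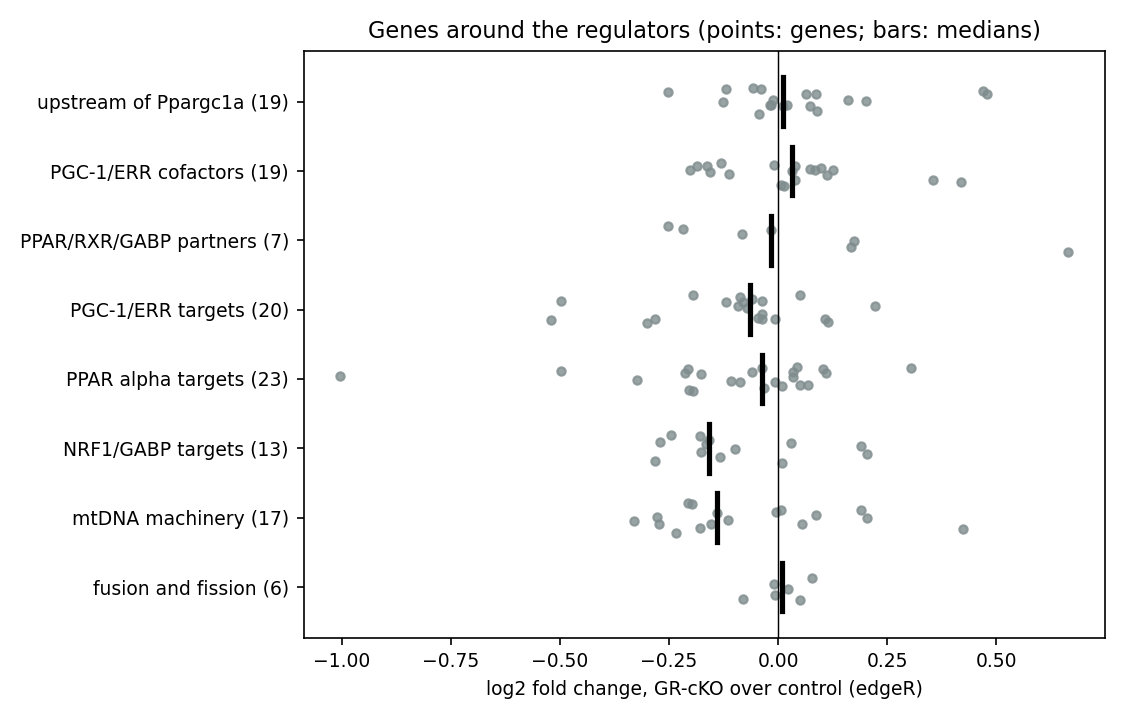
Log2 fold change of GR-cKO over control hearts for each tested gene of the 8 lists (points, with the number tested in brackets) and the median of each list (bars). The medians lie between -0.16 for NRF1 and GABP targets and 0.03 for cofactors, and no point passed the adjusted threshold.

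Brown fat, a tissue rich in PGC-1α, was followed by 8 markers. Ucp1, its defining gene, was at 0, 18.8 and 3.93 CPM in GR-cKO replicates 1, 2 and 3, against 6.78, 89.3 and 0.420 CPM in control replicates 1, 2 and 3. The 8 markers summed to between 1143 and 1376 CPM in GR-cKO and between 1207 and 1551 CPM in control hearts, mostly from Cox8b, which the heart also expresses. Control replicate 2, with the most Ucp1, had the lowest Ppargc1b and the highest Esrra, Esrrb and Tfam of all hearts. The part of brown fat RNA in these values was not tested, and without that heart the log2 fold change was 0.26 for Ppargc1b, -0.35 for Esrrb and -0.16 for Tfam. The 11 skeletal muscle markers summed to at most 11.9 CPM in GR-cKO and 7.55 CPM in control hearts.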

How the data were processed

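Per the labels' protocols, libraries were made from 100 ng of heart RNA with a 3′ mRNA kit (QuantSeq FWD). The deposited values are counts, whole numbers of reads per Ensembl gene, 1 library per file, not normalized or pooled. The submitters' processing notes name cutadapt 1.16, featureCounts 1.6.2, STAR 2.5.4a, DESeq2 1.18.1 and the GRCm38 build. Neither the strand setting nor the annotation release is given in the sources used here.

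Symbols and coordinates came from GENCODE M21. The 92 ERCC and 7 SIRV spike-in rows (1.63 to 2.01% of reads) entered neither library sizes nor tests. All mouse genes were fitted with edgeR 4.0.16 (filterByExpr, TMM, robust quasi-likelihood F test of genotype, Benjamini-Hochberg adjustment over 14860 genes, threshold 0.05). Log2 CPM used a prior count of 2. Every interval of a fold change is 95%. The edgeR test gives no SE, so it was taken as the absolute log2 fold change over the square root of F. The interval was built from this SE with the t distribution and is approximate. Single values per library were compared with 2-sided exact permutation tests. The 3 libraries of a group are called biological replicates by the labels. Alternatives were other scalings, filters, DESeq2 1.42.0, limma 3.58.1, a replicate block, a sex term and each library left out. Copies of the members' last 300 bases were searched with BLAST 2.17.0 in all transcripts at 95% identity over 60 bases, and none was found besides the overlap of Esrra with Trmt112.

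The members, the 8 pathway lists and the 9 marker lists were chosen with earlier results of these data known. Named genes were Nr3c1, the members, up to 3 genes of smallest p from each pathway list, any gene past the threshold and the 3 genes most like Ppargc1a. Atp5a1, Slc25a4, Cox6a2, Mb, Cpt1b, Cox5b and Tomm34 were named outside that rule, after their values were seen, as were the marker genes given with values.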

Additional observations from a re-analysis of the deposited data

How the results depend on the processing

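No member passed the adjusted threshold under any of the 16 alternatives, and the smallest adjusted p of a member was 0.848, for Ppargc1b, Esrrb and Tfam without the low-count filter. Ppargc1b stayed higher, and Esrrb, Esrrg and Tfam stayed lower, in all 16. The count of genes called, 1 in the edgeR fit with TMM, was 2 by library totals, 10 without a low-count filter, 4 with DESeq2, 2 with limma voom and quality weights, and 1 to 2 with a library left out. Perm1, at -0.0010, turned to 0.0018 with DESeq2 size factors in edgeR, 0.0090 with spike-in scaling and 0.0017 with DESeq2. The members' summed level, lower by 2.67 CPM in GR-cKO hearts (a difference of -2.67), turned to 10.01 with spike-in scaling and was -21.9 by library totals (exact permutation p = 0.2). Over the fits that each drop 1 library, the log2 fold change lay between -0.198 and 0.011 for Ppargc1a, -0.14 and 0.022 for Esrra, -0.15 and 0.084 for Perm1, -0.070 and 0.25 for Nrf1, -0.20 and 0.015 for Gabpa, -0.047 and 0.18 for Ppara, -0.17 and 0.0023 for Fis1, and -0.027 and 0.094 for Mfn1. The difference in share lay between -7.91 and -5.11 percentage points for Ppargc1a, 0.767 and 2.88 for Esrra, and -0.464 and 0.846 for Esrrg, and that of the summed level between -35.8 and 14.4 CPM. The cause of these turns was not tested. The medians of the cofactor, upstream, partner and fusion lists, between -0.02 and 0.03, changed sign with some library left out, as did that of PPARα targets. Ckmt2 passed only without the low-count filter (adjusted p = 0.0238). Same-numbered libraries correlated at 0.062, 0.056 and 0.014 across genes in their deviations from group means, and differently numbered ones at -0.089 to 0.029. These small values do not settle whether replicate numbers pair the libraries. With a replicate block no member was called, and Ppargc1b was at 0.32 and Esrrb at -0.50. Depth limits Esrrb most, with 129 to 292 reads per library.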
